A study of Arabidopsis thaliana with 12 samples.

Results

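The iron deficiency response of clf shoots was followed across all genes of Arabidopsis thaliana by comparing 3 RNA-seq libraries from clf plants on iron-deficient medium with 3 from clf plants on iron-sufficient medium, 6 of the 12 libraries of the series. Plants had 12 days on B5 medium and then 3 days with or without iron, under 16 h of light and 8 h of dark at 22 °C. Both clf groups carry the clf mutation, whose allele is not given in the sources used here, so the comparison within clf holds genotype constant. Iron supply went together with sequencing depth, as given below. The other 6 libraries are wild type (Col) on deficient and on sufficient iron, 3 each, and serve below only to set the clf response beside the wild-type one. Nothing states that the replicates came from separate plant batches, so every p-value measures the spread between libraries that may be technical.

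CLF is a histone methyltransferase of Polycomb repressive complex 2 (PRC2), which places the repressive mark H3K27me3 on chromatin. Plants short of iron switch on a cascade of basic helix-loop-helix (bHLH) transcription factors that raise iron uptake, movement and remobilisation, while BTS-type ubiquitin ligases restrain it. At the same time they lower proteins that store iron, and chloroplasts, which hold most leaf iron in photosystem I, ferredoxin, cytochromes and iron-sulfur proteins, lower those that use it. Shoots take part as the site of iron use and as a source of the signal that travels to the root.

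The count table held 32678 gene identifiers, of which 19148 had enough reads to be tested. Total counts were 21297005, 28350032 and 29400813 in deficient clf libraries 1 to 3 and 18135767, 17524002 and 20706803 in sufficient clf libraries 1 to 3, so every deficient library was deeper than every sufficient one. Levels are CPM, counts scaled to a common library size by the trimmed mean of M-values (TMM), and a gene is called where edgeR's quasi-likelihood test gave a Benjamini-Hochberg adjusted p under 0.05 over all tested genes. CLF itself had 3.28, 4.24 and 5.40 CPM in deficient clf and 4.65, 3.09 and 5.35 CPM in sufficient clf, against 13.1 to 17.1 CPM in the 6 wild-type libraries, and was lower in clf on deficient iron (log2 -1.86 ± 0.22 SE, edgeR adjusted p = 0.0013) and on sufficient iron (-1.72 ± 0.22, 0.0024). The labels disagree on tissue: the source name and titles give shoot, while a tissue tag and the extraction protocol give root. Genes of leaf carbon fixation summed to 49380 to 61810 CPM in deficient clf and 63420 to 73360 CPM in sufficient clf. The 15 root markers summed to 50.74 to 61.97 CPM in deficient clf and 41.39 to 55.79 CPM in sufficient clf. Most of that came from SHR and SCR, which leaves also express, SCR with 47.8, 41.9 and 38.2 CPM in deficient clf and 33.4, 29.6 and 25.96 CPM in sufficient clf. The root-tip and root-hair markers WOX5, PLT1 and RHD6 reached at most 0.291 CPM. Of the 15 root markers 9 had enough reads to be tested, and the endodermal marker CASP1, given below with the uptake genes, lay above 0.291 CPM in every clf library.

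Replicate 3 of both clf groups stood apart in its clock genes. The evening gene TOC1 had 9.44, 10.6 and 30.2 CPM in deficient clf and 13.0, 9.90 and 34.9 CPM in sufficient clf, and the morning gene LHY had 379, 330.1 and 163 CPM in deficient clf and 205, 204 and 109.8 CPM in sufficient clf. In each group replicate 3 was highest for TOC1 and lowest for LHY. Of the 20 clock genes tested edgeR called none by iron and DESeq2 called 1. An unadjusted edgeR p under 0.05 was found for 2 of the 20. Over all 19148 tested genes 1477 were higher and 1358 lower at that cut, the background for such counts below. Replicate 3 of sufficient clf also had 209.5 CPM of the jasmonate regulator MYC2, against 24.1 and 30.7 CPM in the other two, and 58.5 CPM of JAZ1, against 3.39 and 4.48 CPM. Results are therefore given with both replicate 3 clf libraries left out wherever that changed a call, and with replicate number as a block wherever the block changed one.

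Iron deficiency changed 291 genes in clf, 1.52% of those tested: 144 were higher (0.752%) and 147 lower (0.768%). Of these, 88 were higher and 69 lower by at least 2-fold, and the median log2 fold change over all tested genes was -0.02. In each of the 291 the deficient and sufficient values did not overlap, whereas over all tested genes 10.3% were higher and 10.6% lower without overlap. Scaling by library totals alone gave 360 higher and 92 lower, and a limma test on log2(FPKM + 0.5) gave 442 and 115, and these moved the median of all genes to 0.15 and 0.13 on the log2 scale, so a change smaller than that shift can change sign with the scaling. The 291 come from a fit that left replicate number out. The block for replicate number gave 109 calls, 57 higher and 52 lower, with 96 of the 291 kept. Leaving out both replicate 3 libraries gave 148, 95 higher and 53 lower, with 126 of the 291 kept. Leaving out 1 library gave 90 calls without replicate 2 of sufficient clf, 95 without replicate 2 of deficient clf, 119 without replicate 3 of sufficient clf, 133 without replicate 1 of either clf group, 179 without replicate 2 of sufficient wild type and 453 without replicate 3 of deficient clf. Of the 291 genes 73 were called in all 12 such fits. The call nearest the threshold inside it was AGD9 (edgeR adjusted p = 0.0498; 0.18 with the block and 0.11 without both replicate 3 libraries) and the nearest outside it AT1G21500 (0.0501).

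The subgroup Ib bHLH factors rose most among the regulators. These are bHLH38, bHLH39, bHLH100 and bHLH101, which act with the uptake regulator FIT and respond to iron shortage in roots and leaves alike. All 4 of 4 were called higher, with a median log2 change of 9.12 against -0.02 over all tested genes. bHLH38 had 229, 247 and 229.6 CPM in deficient clf, against 0.328, 0.116 and 0.257 CPM in sufficient clf (log2 9.93 ± 0.55 SE, edgeR adjusted p = 6.5e-06). BHLH100 had 146, 166 and 225 CPM in deficient clf, against 0.437, 0.233 and 0.0514 CPM in sufficient clf (9.52 ± 0.45, edgeR adjusted p = 3.0e-06). Both were close to silent on sufficient iron in every clf library and among the more abundant regulators without it. bHLH39 had 154, 165 and 164 CPM in deficient clf, against 0.656, 0 and 0.463 CPM in sufficient clf (8.71 ± 0.55, edgeR adjusted p = 1.6e-05). BHLH101 was the least abundant of these factors, with 40.8, 36.9 and 62.4 CPM in deficient clf, against 0.492, 0.349 and 0.257 CPM in sufficient clf (6.98 ± 0.39, edgeR adjusted p = 6.5e-06). bHLH38 and bHLH39 are neighbours and close copies, so the counting could have moved reads between them, and loci on the opposite strand overlap bHLH38 and BHLH101.

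Per length, as fragments scaled by gene length and library size (FPKM), the deposited means over deficient and sufficient clf were 282.6 and 0.251 for bHLH38, 261 and 0.318 for BHLH100, 209 and 0.434 for bHLH39 and 70.8 and 0.498 for BHLH101. On this scale BHLH101 stood well below the others in deficient clf, and all 4 were below 1 FPKM in sufficient clf.

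The sequences before the starts of genes that rose together are shown to set members with and without a G-box, the CACGTG hexamer that bHLH proteins can bind, beside each other. Each is the 250 bases before the RefSeq gene start on TAIR10.1, read 5′ to 3′ on the gene's strand, with CACGTG in capitals. bHLH38 (chr3:21085246-21085495, minus strand) has 1 at -97 and BHLH100 (chr2:17199455-17199704, minus) has 1 at -91. AT1G47400 (chr1:17385457-17385706, plus) has none. AT4G36700 (chr4:17300368-17300617, minus) has 2 at -105 and -84, and AT5G05250 (chr5:1558487-1558736, minus) has 2 at -52 and -24.
bHLH38: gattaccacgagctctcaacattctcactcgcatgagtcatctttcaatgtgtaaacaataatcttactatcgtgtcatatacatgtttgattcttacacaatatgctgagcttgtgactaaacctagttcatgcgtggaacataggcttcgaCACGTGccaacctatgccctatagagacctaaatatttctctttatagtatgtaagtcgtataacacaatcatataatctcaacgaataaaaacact
BHLH100: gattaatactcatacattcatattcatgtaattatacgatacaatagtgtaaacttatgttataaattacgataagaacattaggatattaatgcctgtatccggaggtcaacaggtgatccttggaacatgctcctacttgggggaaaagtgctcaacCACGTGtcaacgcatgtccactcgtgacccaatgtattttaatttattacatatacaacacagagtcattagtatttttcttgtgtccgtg
AT1G47400: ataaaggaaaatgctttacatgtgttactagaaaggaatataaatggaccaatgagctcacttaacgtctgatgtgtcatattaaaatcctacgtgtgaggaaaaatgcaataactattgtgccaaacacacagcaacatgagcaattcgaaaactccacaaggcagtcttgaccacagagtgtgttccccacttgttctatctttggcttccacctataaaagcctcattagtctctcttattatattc
AT4G36700: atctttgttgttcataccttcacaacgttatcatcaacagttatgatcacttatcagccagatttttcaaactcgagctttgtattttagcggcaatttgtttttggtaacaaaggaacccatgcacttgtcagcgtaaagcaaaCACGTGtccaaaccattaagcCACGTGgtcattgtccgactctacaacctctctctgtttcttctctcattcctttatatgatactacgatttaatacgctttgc
AT5G05250: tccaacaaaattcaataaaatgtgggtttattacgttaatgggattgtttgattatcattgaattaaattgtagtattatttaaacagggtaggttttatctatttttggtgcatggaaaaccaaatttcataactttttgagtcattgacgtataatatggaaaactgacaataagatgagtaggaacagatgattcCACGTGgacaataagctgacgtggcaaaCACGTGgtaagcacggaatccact

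CACGTG reads the same on both strands, so one search covers both. It was in 13.9% of the windows of genes called higher (20 of 144) and 12.2% of those called lower (18 of 147), against 7.43% of all 19016 windows of tested genes. It was in 2 of the 4 windows of subgroup Ib factors, bHLH38 and BHLH100, and in none of the 3 IRON MAN windows. It was in 5 of 20 windows of the largest increases and in 2 of 20 of the largest decreases. The evening element AAATATCT was in 4.17% of windows called higher, 4.08% called lower and 4.89% of all, and the GTAC core of copper-response elements was in 35.4%, 36.7% and 34.6%, both strands searched. These are letter matches in one window, with no measure of binding.

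The IRON MAN list holds 3 loci for short peptides that raise the bHLH response in Arabidopsis, and all 3 of 3 rose (median log2 8.42). RefSeq describes each as an uncharacterized protein, so they are given here by locus. AT1G47395 had 159.8, 200.1 and 203 CPM in deficient clf, against 0.601, 0.0582 and 0.7198 CPM in sufficient clf (log2 8.63 ± 0.57 SE, edgeR adjusted p = 2.0e-05). AT1G47400 had 138, 148 and 127 CPM in deficient clf, against 0.219, 0.233 and 0.7198 CPM in sufficient clf (8.42 ± 0.54, 1.7e-05 by edgeR). The pair lie side by side on chromosome 1, and the next tested locus, AT1G47405, had 2.2035, 2.70 and 5.28 CPM in deficient clf, against 0 counts in all 3 sufficient libraries, which makes it at least 64.9-fold higher against a floor of 3 counts over the group (edgeR adjusted p = 0.0038; 0.10 with the block). AT2G30766 had 16.9, 18.9 and 13.0 CPM in deficient clf, against 0.383, 0.408 and 0.617 CPM in sufficient clf (5.09 ± 0.51, edgeR adjusted p = 5.0e-04). It overlaps CYP71A13, a camalexin-pathway cytochrome P450 on the other strand, by 572 bases. CYP71A13 was called too, with 5.80, 6.41 and 7.11 CPM in deficient clf and 0.164, 0.116 and 0.154 CPM in sufficient clf (5.42 ± 0.37, edgeR adjusted p = 2.3e-05). The strand setting of the counting is not given in the sources used here, so reads of the 2 overlapping genes cannot be told apart.

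**Figure D1:**
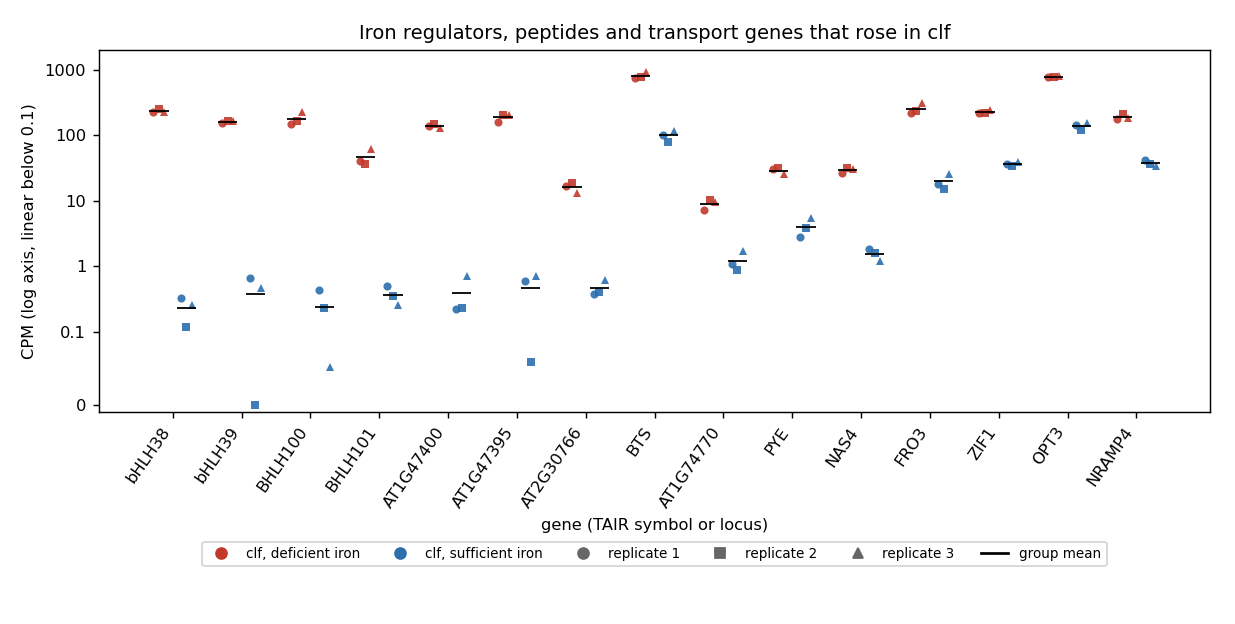
TMM-scaled CPM (log axis, linear below 0.1) of iron regulators, IRON MAN loci and transport genes called higher in clf, deficient libraries at left of each gene and sufficient libraries at right, with 1 symbol per replicate and a line at the group mean. The deficient values lie above the sufficient ones for every gene drawn, and the subgroup Ib factors and IRON MAN loci lie below 1 CPM on sufficient iron.

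Among the other regulators of the iron response, 3 of 11 tested rose and none fell. BTS, the ligase that restrains the response, had 733, 770.1 and 910.3 CPM in deficient clf, against 102, 79.2 and 116 CPM in sufficient clf (log2 3.02 ± 0.16 SE, edgeR adjusted p = 5.9e-06). PYE, a bHLH repressor of iron-movement genes, had 30.04, 31.2 and 25.4 CPM in deficient clf, against 2.79, 3.79 and 5.45 CPM in sufficient clf (2.85 ± 0.32, edgeR adjusted p = 0.0015). AT1G74770, annotated as a zinc ion binding protein, had 7.28, 10.1 and 9.51 CPM in deficient clf, against 1.09, 0.874 and 1.70 CPM in sufficient clf (2.87 ± 0.29, edgeR adjusted p = 6.1e-04). The regulators that act above this tier did not pass the test. ILR3 had 96.3, 88.3 and 79.4 CPM in deficient clf and 73.9, 89.2 and 80.6 CPM in sufficient clf (log2 0.11, edgeR adjusted p = 0.70), with overlapping values. bHLH34, bHLH104 and bHLH121 likewise overlapped, with log2 changes of 0.18, -0.12 and -0.20. bHLH115 did not overlap, at 50.8, 48.5 and 45.3 CPM in deficient clf and 41.0, 39.1 and 36.2 CPM in sufficient clf, and its change of 0.31 ± 0.11 had an edgeR adjusted p of 0.20. FIT, listed by the symbol FRU, stayed low, with 1.39, 2.29 and 0.671 CPM in deficient clf and 0.874, 0.815 and 0.566 CPM in sufficient clf (0.95, edgeR adjusted p = 0.50).

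Genes that move iron inside the plant changed in both directions: 5 of 25 tested rose and 1 fell, with a median of -0.02. OPT3, which loads iron into the phloem, had 767, 782 and 799 CPM in deficient clf, against 141, 119 and 152 CPM in sufficient clf (log2 2.51 ± 0.13 SE, edgeR adjusted p = 4.1e-06). ZIF1, a vacuolar nicotianamine transporter, had 219, 215 and 239 CPM in deficient clf, against 36.1, 34.01 and 38.7 CPM in sufficient clf (2.63 ± 0.09, edgeR adjusted p = 4.7e-07). Replicates of both genes lay within a narrow band in each group, and the groups were far apart. NAS4, a nicotianamine synthase, had 26.1, 31.2 and 30.2 CPM in deficient clf, against 1.86, 1.57 and 1.18 CPM in sufficient clf (4.24 ± 0.32, edgeR adjusted p = 4.7e-05). The mitochondrial ferric reductase gene FRO3 had 216, 237 and 307 CPM in deficient clf, against 18.3, 15.1 and 25.6 CPM in sufficient clf (3.69 ± 0.22, edgeR adjusted p = 9.3e-06). NRAMP4, which releases vacuolar iron, had 179, 208 and 182 CPM in deficient clf, against 41.2, 36.4 and 34.1 CPM in sufficient clf (2.35 ± 0.13, edgeR adjusted p = 6.5e-06). All 5 rising genes were called in each fit that left out 1 library, with the block and without both replicate 3 libraries. The close relative of NRAMP4, NRAMP3, did not pass (log2 -0.37 ± 0.12, edgeR adjusted p = 0.18).

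The gene that fell was IRT3, a zinc and iron transporter, with 2.11, 0.911 and 1.56 CPM in deficient clf, against 7.87, 9.14 and 6.22 CPM in sufficient clf (log2 -2.35 ± 0.38 SE, edgeR adjusted p = 0.015; 0.052 with the block and 0.073 without both replicate 3 libraries). Its call was lost in 3 of 12 fits that left out 1 library, the highest adjusted p being 0.072 without replicate 2 of sufficient clf. It lies 7 bases from ferredoxin FED A, which is oppositely oriented and also fell. NAS3, the synthase with the reverse pattern to NAS4, had 7.64, 4.55 and 2.32 CPM in deficient clf and 9.51, 16.9 and 11.6 CPM in sufficient clf, without overlap and without a call (-1.40 ± 0.41, edgeR adjusted p = 0.13). YSL1, which imports iron-nicotianamine, sat next to the threshold (-1.26 ± 0.27, edgeR adjusted p = 0.051). The plastid reductase FRO7 and the plastid importer TIC21 overlapped between groups (0.11 and -0.17).

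Of the root-type uptake and coumarin genes 2 of 13 tested rose, while 12 of 13 had a positive change, with a median of 1.85. The list summed to 289.6 to 371.8 CPM in deficient clf and 266.6 to 280 CPM in sufficient clf. FRO2, IRT1 and CYP82C4 were a small part of that, at no more than 29.9 CPM each, and varied with replicate. FRO2, the ferric chelate reductase of the root surface, had 19.5, 29.3 and 11.1 CPM in deficient clf, against 1.48, 0.641 and 4.22 CPM in sufficient clf (log2 3.23 ± 0.66 SE, edgeR adjusted p = 0.041; 0.13 with the block). IRT1, the main root iron importer, followed FRO2 with 19.4, 29.9 and 8.14 CPM in deficient clf, against 2.35, 1.11 and 5.24 CPM in sufficient clf, and did not pass (2.71 ± 0.72, edgeR adjusted p = 0.098). For both genes the third replicate was the lowest of the deficient and the highest of the sufficient libraries. CYP82C4, which makes the coumarin sideretin, had 13.1, 14.8 and 3.48 CPM in deficient clf, against 0.547, 0.349 and 1.08 CPM in sufficient clf (3.96 ± 0.78, edgeR adjusted p = 0.036; 0.10 with the block). With the block 1 member of the list was called higher, neither FRO2 nor CYP82C4. Leaving out 1 library at a time ended the FRO2 call in 9 of 12 fits and the CYP82C4 call in 7. The edgeR adjusted p reached 0.14 for FRO2 without replicate 2 of deficient clf and 0.16 for CYP82C4 without replicate 2 of sufficient clf. None of the list was called without replicate 1 or 2 of either clf group or replicate 2 or 3 of deficient wild type, 1 without replicate 3 of sufficient clf, replicate 1 of deficient wild type or replicate 1 or 2 of sufficient wild type, and 3 without replicate 3 of deficient clf. Without both replicate 3 libraries FRO2 (log2 4.52, edgeR adjusted p = 0.023) and CYP82C4 (4.94, 0.042) were called. The endodermal marker CASP1 had 1.21, 2.23 and 0.518 CPM in deficient clf and 2.19, 5.88 and 1.65 CPM in sufficient clf, and edgeR called none of the 9 root markers tested, although 4 had an unadjusted p under 0.05 and DESeq2 called 2 lower. The part of root tissue in the uptake genes was not tested. In whole shoots fewer cells of a type and less RNA per cell cannot be told apart, here or for any gene below.

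Genes of the iron storage list, which also holds the iron-sulfur protein NEET, were lower: 5 of 7 tested fell and none rose, with a median log2 change of -2.07. Ferritins hold iron in plastids and vacuolar iron transporters place it in vacuoles. FER1 had 20.955, 14.1 and 11.9 CPM in deficient clf, against 72.5, 105 and 36.1 CPM in sufficient clf (log2 -2.18 ± 0.42 SE, edgeR adjusted p = 0.033; 0.072 with the block and 0.051 without both replicate 3 libraries). FER4 was more even, with 5.31, 4.65 and 2.35 CPM in deficient clf, against 17.9, 18.1 and 15.4 CPM in sufficient clf (-2.07 ± 0.29, edgeR adjusted p = 0.0069). FER3 showed no such difference, with 24.7, 24.8 and 16.0 CPM in deficient clf, overlapping 21.5, 23.4 and 18.6 CPM in sufficient clf (0.05 ± 0.68, edgeR adjusted p = 0.99). NEET, an iron-sulfur protein of chloroplasts and mitochondria, had 9.17, 5.97 and 4.36 CPM in deficient clf, against 63.5, 73.1 and 42.1 CPM in sufficient clf (-3.20 ± 0.31, edgeR adjusted p = 3.7e-04). Its call and that of FER4 held in every fit that left out 1 library, while FER1 lost its call in 7 of 12, with an adjusted p up to 0.14 without replicate 2 of deficient clf. The list kept 2 calls without replicate 1 or 3 of deficient clf or replicate 1 or 2 of sufficient clf, and 3 without replicate 2 of deficient clf, replicate 1 or 3 of deficient wild type or replicate 2 of sufficient wild type. Of the vacuolar iron transporter family, AT3G25190 (-4.08) and AT1G76800 (-1.998) fell, with no sufficient value above 4.59 CPM, and both lost the call with the block (edgeR adjusted p = 0.098 and 0.12) and in 6 and 11 of the 12 fits that left out 1 library. AT3G25190 also lost it without both replicate 3 libraries (0.13).

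Superoxide dismutases, which remove superoxide with copper and zinc, iron or manganese at the active site, fell in both the copper and the iron class: 4 of 8 loci of the list were lower and none higher. CSD1, the cytosolic copper/zinc enzyme, had 2.07, 4.55 and 3.54 CPM in deficient clf, against 18.9, 14.9 and 26.7 CPM in sufficient clf (log2 -2.56 ± 0.36 SE, edgeR adjusted p = 0.0063). CSD2, its plastid counterpart, had 2.02, 5.84 and 3.26 CPM in deficient clf, against 26.1, 24.1 and 35.0 CPM in sufficient clf (-2.93 ± 0.48, edgeR adjusted p = 0.015). CCS, the chaperone that loads copper into both, had 2.2035, 4.08 and 4.91 CPM in deficient clf, against 9.29, 10.3 and 10.7 CPM in sufficient clf (-1.43 ± 0.29, edgeR adjusted p = 0.039; 0.080 with the block). CSD1, CSD2 and CCS were lower in each deficient library than in any sufficient one. Without both replicate 3 libraries the edgeR adjusted p was 0.059 for CSD1, 0.11 for CSD2 and 0.086 for CCS, at similar log2 changes of -2.34, -2.66 and -1.63. FSD1, the abundant plastid iron enzyme, had 479.8, 383 and 254 CPM in deficient clf, against 834, 974 and 849 CPM in sufficient clf (-1.25 ± 0.20, edgeR adjusted p = 0.014). The manganese enzyme MSD1 (-0.01), the peroxisomal CSD3 (-0.17) and the iron enzymes FSD2 and FSD3 (-0.06 and 0.39) did not pass the test. The list kept 2 calls without replicate 1 or 2 of deficient clf or replicate 2 or 3 of sufficient clf. CSD1 held in every fit that left out 1 library, while CSD2 lost its call in 2 of 12, FSD1 in 2 and CCS in 8. The edgeR adjusted p was up to 0.061 for CSD2 without replicate 1 of deficient clf and up to 0.066 for FSD1 and 0.13 for CCS without replicate 2 of sufficient clf. Of the 20 copper transport and copper protein genes tested, edgeR called 0, with 8 at an unadjusted p under 0.05 and 3 called lower by DESeq2. Without both replicate 3 libraries edgeR called 1 of the 20 lower, and with a term for shifted clock genes 3 lower.

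Heme enzymes that remove peroxide fell in part, 3 of 8 tested. Cytosolic APX1 had 98.9, 82.3 and 63.9 CPM in deficient clf, against 195, 219 and 209 CPM in sufficient clf (log2 -1.35 ± 0.23 SE, edgeR adjusted p = 0.019; 0.074 with the block and 0.11 without both replicate 3 libraries). Stromal SAPX had 15.9, 12.1 and 8.14 CPM in deficient clf, against 42.4, 40.2 and 28.5 CPM in sufficient clf (-1.62 ± 0.27, edgeR adjusted p = 0.017). Thylakoid TAPX fell less and close to the threshold (-0.57 ± 0.12, edgeR adjusted p = 0.050; 0.14 both with the block and without both replicate 3 libraries). CAT3, a catalase, had 555, 598 and 383 CPM in deficient clf and 1046, 1203 and 2109.5 CPM in sufficient clf, which did not overlap and did not pass (-1.50 ± 0.35, edgeR adjusted p = 0.067). The leaf catalase CAT2 overlapped, with 2502, 2117 and 1277 CPM in deficient clf and 2588, 2604.5 and 1659 CPM in sufficient clf (-0.22, edgeR adjusted p = 0.83). None of the 8 was called without replicate 2 of deficient clf or replicate 1 or 2 of sufficient clf, and 1 without replicate 3 of sufficient clf. APX1, SAPX and TAPX lost their calls in 4, 3 and 10 of 12 such fits, the highest edgeR adjusted p being 0.086, 0.079 and 0.20, each without replicate 2 of deficient clf.

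**Figure D2:**
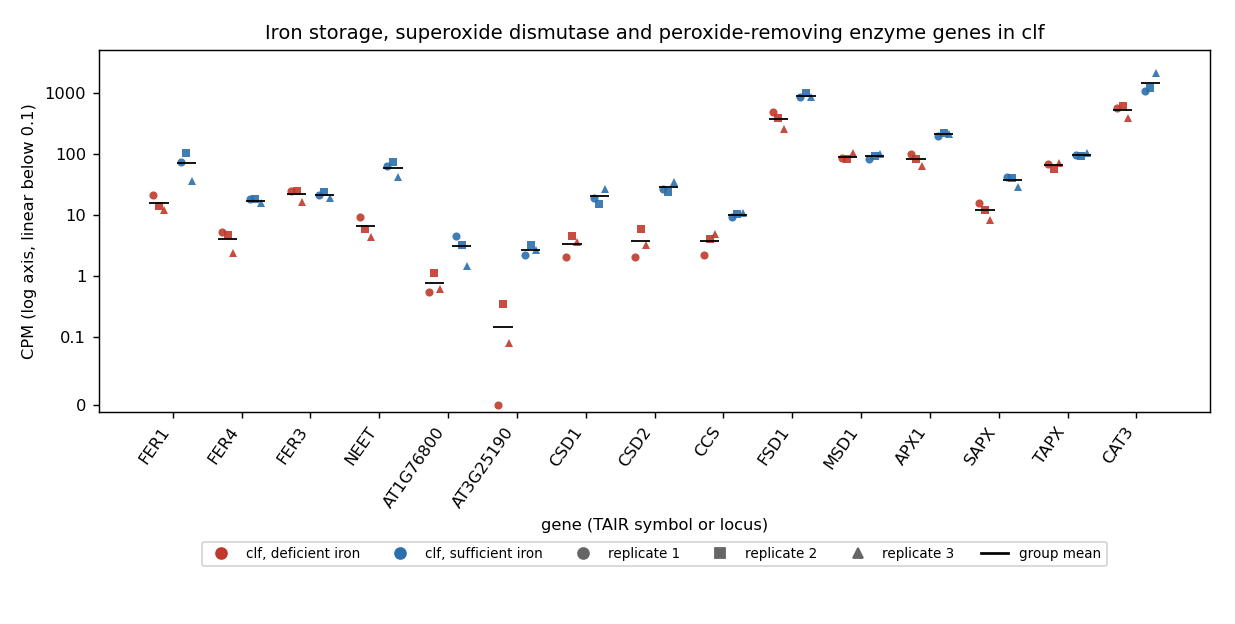
TMM-scaled CPM (log axis, linear below 0.1) in clf of genes from the iron storage list (with NEET), the superoxide dismutase list and the peroxide-removing enzyme list. Deficient libraries are at left of each gene and sufficient libraries at right, with 1 symbol per replicate and a line at the group mean. NEET, CSD1, CSD2 and AT3G25190 are clearly apart between the groups, and FER3 and MSD1 overlap.

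Most genes of chlorophyll and heme synthesis had a negative change, and few of them were called. HEMA1, which makes the glutamyl-tRNA reductase at the entry of the pathway, had 277, 210.1 and 126 CPM in deficient clf, against 1242.5, 1163 and 872 CPM in sufficient clf (log2 -2.42 ± 0.31 SE, edgeR adjusted p = 0.0034), and was called in every fit that left out 1 library, with the block and without both replicate 3 libraries. Of 27 genes tested, edgeR called 3 lower and none higher, while 26 had a negative change, with a median of -0.32. The list summed to 8099 to 10060 CPM in deficient clf and 12890 to 14880 CPM in sufficient clf. DESeq2 called 5 lower, and edgeR called 1 lower with the block and 1 without both replicate 3 libraries. PORA, a protochlorophyllide reductase, had 3.82, 4.99 and 3.75 CPM in deficient clf, against 14.05, 13.6 and 13.9 CPM in sufficient clf (-1.72 ± 0.25, edgeR adjusted p = 0.0078; 0.052 with the block and 0.073 without both replicate 3 libraries). CHLM, a methyltransferase of the magnesium branch, fell by 0.51 on the log2 scale (edgeR adjusted p = 0.025; 0.12 with the block and 0.11 without both replicate 3 libraries), and lost its call in 6 of 12 fits that left out 1 library, up to 0.12 without replicate 2 of deficient clf. CRD1, the diiron cyclase subunit of the same branch, did not pass, with 2293, 2054 and 1821 CPM in deficient clf, overlapping 2438, 2390.4 and 2246 CPM in sufficient clf (-0.20 ± 0.10, edgeR adjusted p = 0.38). NYC1, which breaks down chlorophyll b, fell as well, with 38.3, 34.7 and 22.5 CPM in deficient clf, against 96.5, 118 and 104 CPM in sufficient clf (-1.74 ± 0.29, edgeR adjusted p = 0.015; 0.054 with the block and 0.086 without both replicate 3 libraries; up to 0.072 without replicate 2 of sufficient clf alone). ABCI8, the plastid iron-sulfur scaffold SUFB, was the 1 gene called of 15 in iron-sulfur assembly, with 91.0, 76.6 and 40.3 CPM in deficient clf, against 211, 233 and 169 CPM in sufficient clf (-1.56 ± 0.30, edgeR adjusted p = 0.031; 0.056 without both replicate 3 libraries). Its call was lost in 7 of 12 fits that left out 1 library, up to 0.12 without replicate 2 of sufficient clf.

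Of 18 photosystem I genes 7 fell, and of 24 photosystem II and light-harvesting genes 14 fell, and none rose in either list. With TMM scaling every gene of both lists had a negative change, the nearest to 0 at -0.08, with medians of -0.67 and -0.65, against -0.02 over all tested genes. PSAF, a photosystem I subunit, had 1057, 920.8 and 919 CPM in deficient clf, against 2280.5, 2507 and 3392 CPM in sufficient clf (log2 -1.50 ± 0.22 SE, edgeR adjusted p = 0.0078; 0.065 with the block and 0.071 without both replicate 3 libraries). PSAD-2, another subunit, had 1059.6, 863.5 and 838 CPM in deficient clf, against 1599.7, 1789.9 and 1800.5 CPM in sufficient clf (-0.91 ± 0.12, edgeR adjusted p = 0.0039). LHCB2.3, a light-harvesting protein, had 696, 541 and 592 CPM in deficient clf, against 1304, 1476 and 1414 CPM in sufficient clf (-1.20 ± 0.11, edgeR adjusted p = 3.6e-04). PSAD-2 and LHCB2.3 kept their calls with the block and without both replicate 3 libraries. The list counts did not: with the block 1 of 18 and 1 of 24 were called, and without both replicate 3 libraries 1 of 18 and 3 of 24. Leaving out replicate 2 of deficient clf left 1 and 2, replicate 2 of sufficient clf 2 and 2, replicate 3 of sufficient clf 2 and 3, and replicate 1 of deficient clf 4 and 7, while DESeq2 called 14 and 19. The photosystem II list also gave 9 without replicate 3 of deficient clf or replicate 1 of sufficient clf, 8 without replicate 3 of deficient or replicate 1 of sufficient wild type, and 7 without replicate 2 of sufficient wild type. Sequences of the LHCB1 and LHCB2 genes are close to identical, so reads could have been shared among them.

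Around photosystem I the plastid ferredoxin FED A had 843, 743 and 482 CPM in deficient clf, against 1639.8, 2043 and 1734 CPM in sufficient clf (log2 -1.39 ± 0.20 SE, edgeR adjusted p = 0.0074). The Rieske iron-sulfur protein of the cytochrome b6f complex, PETC, fell less (-0.61 ± 0.11, edgeR adjusted p = 0.022; 0.10 with the block and 0.11 without both replicate 3 libraries). These were the 2 called of 10 electron transfer genes, and PETC was lost without replicate 2 of deficient clf (edgeR adjusted p = 0.11) and without replicate 2 or 3 of sufficient clf. Of 12 carbon fixation genes 1 fell, the carbonic anhydrase CA1, with 2217, 1649 and 1895 CPM in deficient clf, against 3622, 3948.5 and 3517 CPM in sufficient clf (-0.94 ± 0.12, edgeR adjusted p = 0.0040; 0.050 and not called with the block; 2 of the list were called without replicate 3 of deficient clf). FBA5, a fructose-bisphosphate aldolase, fell with 271, 169.9 and 154 CPM in deficient clf, against 584, 669 and 634 CPM in sufficient clf (-1.67 ± 0.22, edgeR adjusted p = 0.0046). Xylem, phloem, guard cell and floral MADS markers gave no call with either edgeR or DESeq2, and 0 members of those 4 lists had an unadjusted edgeR p under 0.05. All 5 xylem markers tested had a negative change, while the other lists had both signs. The xylem list summed to 22.35 to 27.96 CPM in deficient clf and 30.87 to 40.05 CPM in sufficient clf.

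**Figure D3:**
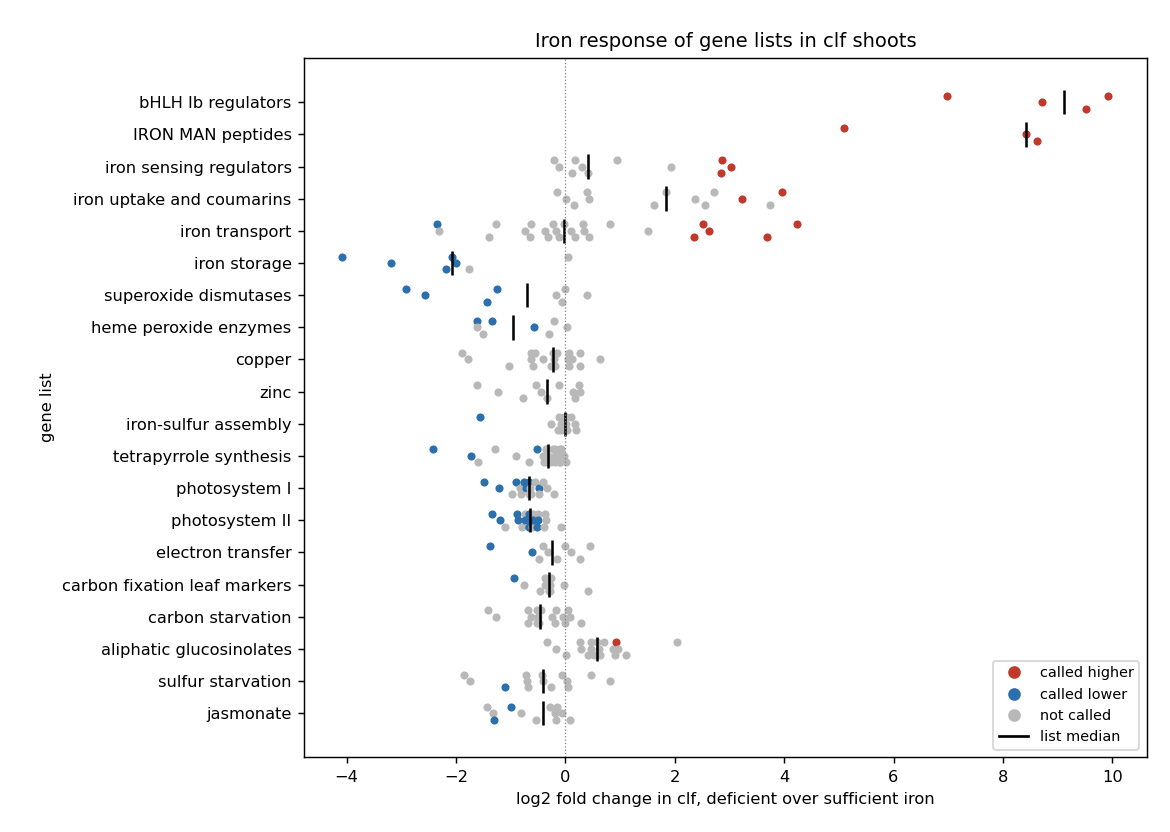
Log2 fold change in clf, deficient over sufficient iron, of each tested gene (1 point) in 20 gene lists, coloured by the edgeR call, with a bar at the list median. The subgroup Ib regulators and IRON MAN loci lie between 5.09 and 9.93, while the photosystem lists lie wholly below 0, between -1.50 and -0.08.

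The largest increases included several genes with little annotated function. AT1G13608, a defensin-like gene, had 6.07, 11.6 and 5.67 CPM in deficient clf, against 0 counts in the 3 sufficient libraries, and was at least 146-fold higher against a floor of 3 counts over the group (edgeR adjusted p = 0.0026; 0.061 with the block). Its neighbour AT1G13609 was far more abundant, with 232, 281 and 235 CPM in deficient clf, against 1.37, 0.291 and 0.154 CPM in sufficient clf (log2 8.68 ± 0.72 SE, edgeR adjusted p = 1.2e-04). AT2G14247 had 148, 150.2 and 182 CPM in deficient clf, against 0.984, 0.116 and 0.823 CPM in sufficient clf (7.94 ± 0.50, edgeR adjusted p = 1.6e-05). Per length AT1G13609 reached 722 FPKM in deficient clf and 1.60 FPKM in sufficient clf, and AT2G14247 reached 359.7 and 1.28 FPKM, both above every subgroup Ib factor in deficient clf. AT4G36700, a cupin-domain gene with 2 G-boxes in the window shown above, had 67.8, 112 and 199 CPM in deficient clf, against 0.929, 0.874 and 0.360 CPM in sufficient clf (7.45 ± 0.50, edgeR adjusted p = 2.0e-05). AT5G05250, the other window with 2, had 136, 149 and 163 CPM in deficient clf, against 5.68, 3.96 and 9.61 CPM in sufficient clf (4.54 ± 0.32, edgeR adjusted p = 3.4e-05). ORG1 had 427, 472 and 400.4 CPM in deficient clf, against 37.9, 36.3 and 43.5 CPM in sufficient clf (3.46 ± 0.15, edgeR adjusted p = 2.1e-06).

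Smaller increases touched other roles. TSO2, a subunit of ribonucleotide reductase, which makes DNA precursors with a diiron centre, had 84.6, 99.8 and 97.6 CPM in deficient clf, against 19.0, 21.6 and 20.8 CPM in sufficient clf (log2 2.199 ± 0.19 SE, edgeR adjusted p = 1.8e-04). CGLD27, annotated only by its conserved domain, had 327, 328 and 267 CPM in deficient clf, against 68.5, 75.9 and 54.4 CPM in sufficient clf (2.22 ± 0.21, edgeR adjusted p = 3.0e-04). The transcription factor genes ASG4, of the homeodomain-like type, and GATA12 rose by log2 2.50 ± 0.30 and 3.19 ± 0.31 (edgeR adjusted p = 0.0025 and 4.6e-04). All 4 kept their calls with the block and without both replicate 3 libraries. Aliphatic glucosinolate genes were mostly positive, 17 of 19 with a median of 0.58, but 1 was called, the S-oxygenase gene FMO GS-OX1 (0.92 ± 0.19, edgeR adjusted p = 0.046; 0.12 with the block or without both replicate 3 libraries, and lost in 10 of 12 fits that left out 1 library, up to 0.18 without replicate 1 of deficient clf). Of the 19, 13 had an unadjusted edgeR p under 0.05. DESeq2 called 7 higher, library totals alone 5, limma on FPKM 5, and the fit with a term for shifted clock genes 9 higher and 1 lower.

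Among other large decreases, AT2G36885, annotated as a translation initiation factor, had 0.630, 0.408 and 0.122 CPM in deficient clf, against 7.87, 5.42 and 7.15 CPM in sufficient clf (log2 -4.17 ± 0.55 SE, edgeR adjusted p = 0.0043). AT3G49160, of the pyruvate kinase family, had 3.55, 2.105 and 1.28 CPM in deficient clf, against 20.9, 19.0 and 12.8 CPM in sufficient clf (-2.94 ± 0.52, edgeR adjusted p = 0.021; 0.083 without both replicate 3 libraries and up to 0.11 without replicate 2 of deficient clf alone). ENH1, a gene of the rubredoxin family, had 59.3, 42.7 and 24.0 CPM in deficient clf, against 137, 157 and 99.9 CPM in sufficient clf (-1.65 ± 0.32, edgeR adjusted p = 0.034). ENH1 lost its call in 7 of 12 fits that left out 1 library, up to 0.13 without replicate 2 of deficient clf. The copper amine oxidase AT3G43670 fell by 1.85 on the log2 scale (edgeR adjusted p = 0.017; 0.053 with the block, 0.087 without both replicate 3 libraries and 0.064 without replicate 3 of sufficient clf alone). MT2B, a metallothionein, a small protein that binds copper and zinc, had 20.3, 18.5 and 19.4 CPM in deficient clf, against 49.96, 45.5 and 33.1 CPM in sufficient clf (-1.14 ± 0.23, edgeR adjusted p = 0.038; 0.082 without both replicate 3 libraries, and up to 0.15 without replicate 2 of deficient clf).

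Set beside wild type, the clf response ran in the same direction and called fewer genes. In wild type 1747 genes (9.12% of those tested) were called, 882 higher (4.61%) and 865 lower (4.52%). Of these, 240 were called in both genotypes, 82.5% of the clf calls and 13.7% of the wild-type calls, all 240 with the same sign. A further 51 were called in clf and not in wild type. The clf count of 291 moved with the fit. It was 1741 with the term for shifted clock genes, 935 by DESeq2 and 109 with the block. Fits that left out 1 library gave 90 to 453. Wild-type counts under these fits were not computed, so 291 and 1747 do not by themselves measure the size of either response. The 2 iron comparisons share no library, only the estimate of the spread. Of the 291 clf genes 179 had the larger change in wild type and 112 in clf, but edgeR called the difference itself for none of them. The smallest edgeR adjusted p of the interaction was 0.16, for the pectate lyase AT1G67750. An unadjusted edgeR interaction p under 0.05 was found for 107 of the 291, against 1416 of all 19148 tested genes. Over all genes tested DESeq2 called the interaction for 97. AT1G67750 rose by log2 1.29 ± 0.20 in clf and by 3.17 in wild type (edgeR adjusted p = 0.012 in clf; 0.080 with the block, 0.092 without both replicate 3 libraries and 0.057 without replicate 1 of sufficient clf alone). NEET fell by 3.20 on the log2 scale in clf and by 5.54 in wild type (edgeR interaction adjusted p = 0.20), FSD1 by 1.25 and 2.71 (0.25) and BHLH100 rose by 9.52 and 12.6 (0.49).

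**Figure D4:**
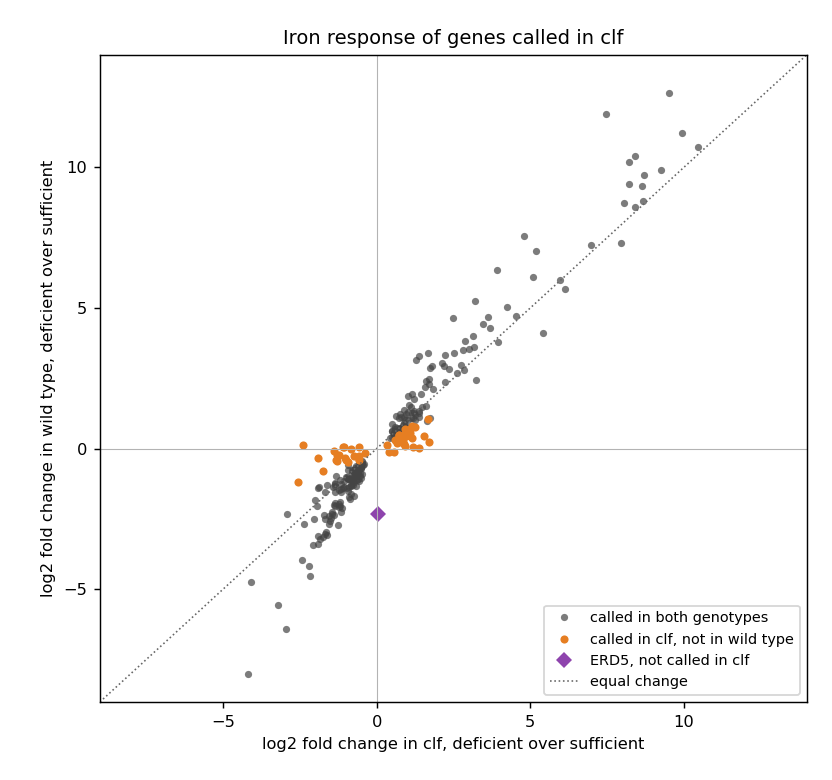
Log2 fold change, deficient over sufficient iron, in clf (x axis) and in wild type (y axis) of the 291 genes called in clf and of ERD5, with a dotted line at equal change. Genes called in both genotypes lie in the upper right and lower left quadrants, and 7 genes called in clf lie in the quadrants of opposite sign.

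Some genes called in clf changed little in wild type, though the genotype difference did not pass its own test. SULTR1;2, a sulfate importer, had 5.13, 6.19 and 5.67 CPM in deficient clf, against 13.1, 10.9 and 12.4 CPM in sufficient clf (log2 -1.10 ± 0.14 SE, edgeR adjusted p = 0.0036; 0.053 with the block), while its wild-type change was 0.05 (edgeR interaction adjusted p = 0.19). The vegetative storage proteins VSP2 and VSP1, jasmonate-responsive acid phosphatases that lie next to each other, fell together. VSP2 had 66.5, 66.3 and 72.1 CPM in deficient clf, against 106, 149 and 154 CPM in sufficient clf (-0.998 ± 0.14, edgeR adjusted p = 0.0073; 0.051 without both replicate 3 libraries). VSP1 had 17.0, 10.6 and 15.1 CPM in deficient clf, against 27.3, 40.9 and 36.9 CPM in sufficient clf (-1.30 ± 0.20, edgeR adjusted p = 0.011; 0.086 with the block and 0.073 without both replicate 3 libraries, and 0.056 without replicate 2 of sufficient clf alone). Their wild-type changes were -0.42 and -0.23, and their interaction adjusted p-values were 0.61 and 0.46. The jasmonate genes with a high replicate 3 in sufficient clf, MYC2 and JAZ1, were not called (edgeR adjusted p = 0.92 and 0.79). ChiC, a glycosyl hydrolase gene with a chitinase domain, had 1.35, 3.05 and 1.92 CPM in deficient clf, against 7.11, 10.9 and 6.07 CPM in sufficient clf (-1.92 ± 0.31, edgeR adjusted p = 0.014; 0.058 without both replicate 3 libraries and 0.059 without replicate 2 of sufficient clf alone), with a wild-type change of -0.32 (interaction adjusted p = 0.46). Of the 291 genes 7 had the opposite sign in wild type: AT2G36930, AT3G14600, AT3G56160, AT4G11900, LOX1, SULTR1;2 and AT5G39120. None of the 7 was called with the block (edgeR adjusted p between 0.053 and 0.15), and without both replicate 3 libraries SULTR1;2 alone was (0.045). In the 12 fits that left out 1 library SULTR1;2 kept its call throughout and the others lost it in 6 to 12.

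ERD5 was the 1 gene of 19148 tested (0.00522%) for which edgeR called a difference in iron response between the genotypes, while DESeq2 and a fit with a term for the 4 libraries with shifted clock genes each called 97. It encodes proline dehydrogenase, the first enzyme of proline breakdown. In clf it had 295, 311 and 359 CPM on deficient iron, overlapping 274, 300.1 and 354 CPM on sufficient iron (log2 0.06 ± 0.14 SE, edgeR adjusted p = 0.92). In wild type it had 53.7, 66.3 and 69.1 CPM on deficient iron, against 278, 352 and 322 CPM on sufficient iron (log2 -2.33, edgeR adjusted p = 9.6e-06). Deficient clf thus stood at the level of both sufficient groups. The interaction was 2.39 ± 0.20 with an edgeR adjusted p of 0.0036. It was called in each of the alternatives run, with adjusted p between 2.8e-04 and 0.033 by edgeR and limma and 3.1e-24 by DESeq2. Carbon starvation genes, which rise when sugar is short, had none called in clf by edgeR. Of 18 tested, 2 had an unadjusted p under 0.05, DESeq2 called 1 lower and edgeR called 5 lower without replicate 3 of deficient clf. In wild type 10 of 18 fell. Their medians were -0.46 in clf and -1.28 in wild type. DIN10 shows the spread in clf, with 556, 524 and 1565 CPM in deficient clf and 1245, 1094 and 1896 CPM in sufficient clf, replicate 3 being highest in each group.

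**Figure D5:**
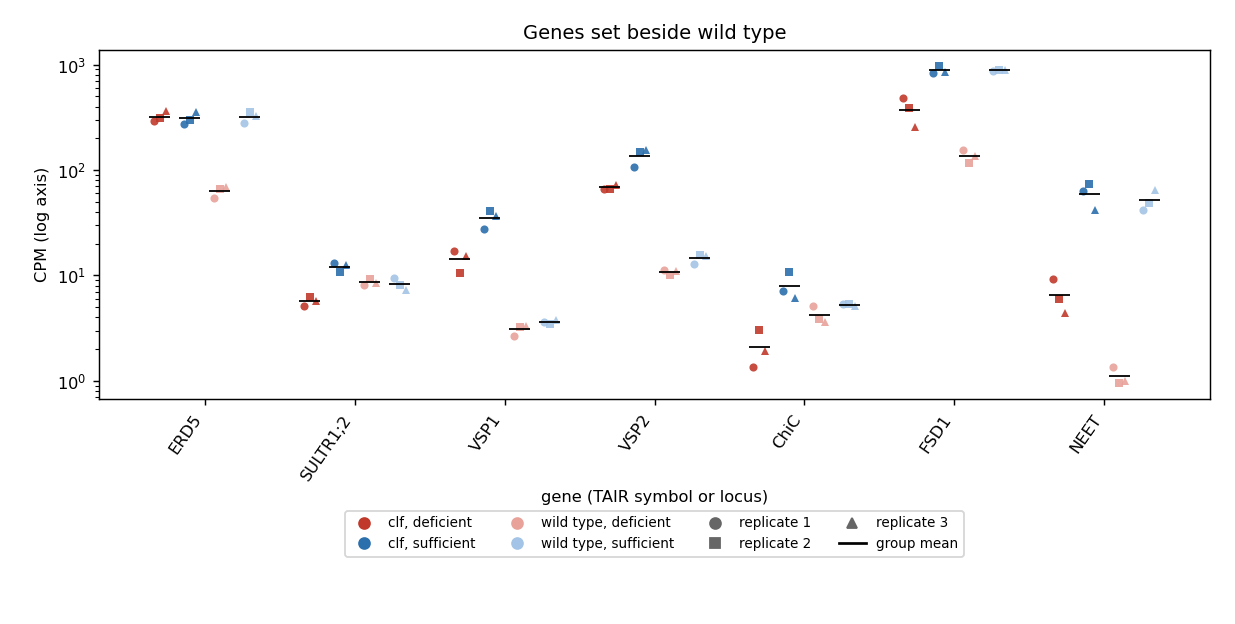
TMM-scaled CPM (log axis) of 7 genes in clf on deficient and sufficient iron and in wild type on deficient and sufficient iron, left to right, with 1 symbol per replicate and a line at each group mean. ERD5 is low in the 3 deficient wild-type libraries alone, SULTR1;2 and the VSP genes are separated by iron in clf, and FSD1 and NEET are lower on deficient iron in both genotypes.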

How the data were processed

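Poly(A) RNA from 12 libraries was prepared with a stranded mRNA kit, per the labels' protocols, and TopHat2 and TAIR10 are named in the submitters' processing notes. No source used here gives the counter, its annotation or its strand setting. The authors deposited whole-number read counts per gene for all libraries in 1 table, with total counts of 17524002 to 29400813 in the 6 clf libraries. They also deposited FPKM values per library, used here for levels per length and for 1 alternative. Counts were fitted with edgeR 4.0.16 (R 4.3.3) as 4 groups of 3 libraries, with 8 residual degrees of freedom, TMM scaling, a filter at 10 counts (total 15) and the quasi-likelihood test, adjusted by Benjamini-Hochberg over 19148 genes. limma 3.58.1 (pseudocount 0.5 on FPKM) and DESeq2 1.42.0 were alternatives, and the fits were tested on simulated data. Genes were named as members of the iron, superoxide, heme and copper lists, as called members of the other lists, as the 20 largest called increases and decreases (higher mean of 5 CPM or more), as the 15 smallest interaction p-values, or for an opposite sign in wild type. TSO2, CGLD27, MT2B, AT1G47405, CRD1, CASP1, DIN10 and the genes of the closing observations were chosen after their values were seen. The members and lists were chosen with earlier results of these data known. SE is an approximate standard error of a log2 fold change. It was computed as the absolute log2 fold change divided by the square root of the F statistic of the quasi-likelihood test. It is least reliable where the change is near 0, as for FER3.

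Of the identifiers, 31912 of 32678 were found in the RefSeq gene table, from which products and neighbours were taken. The replicate numbers were checked for pairing: within clf, deviations from the group means correlated between deficient and sufficient libraries of the same number at 0.228, 0.439 and 0.547, which met the rule for treating the numbers as pairs, although deficient replicate 2 and sufficient replicate 1 correlated at 0.332 and deficient replicate 1 and sufficient replicate 2 at 0.257, both above the lowest same-number value. Although the rule was met, the main fit did not pair the libraries. The 291 calls, the list counts and the SE values all come from that unpaired fit. If the numbers are pairs, the fit with the replicate block is the one that takes them into account. It called 109 genes and kept 96 of the 291. The 3 libraries per group limit the precision.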

Additional observations from a re-analysis of the deposited data

Results flagged for a closer look

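ERD5, for proline dehydrogenase, was the 1 gene for which the edgeR test of the difference between the iron responses of clf and wild type made a call, with an interaction of 2.39 on the log2 scale (edgeR adjusted p = 0.0036). Its change was 0.06 in clf and -2.33 in wild type. DESeq2 called 97 genes in its test of the same difference, ERD5 among them. No cause was tested.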

How the results depend on the processing

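Of 291 genes called in clf, 291 were also called by DESeq2, 126 without both replicate 3 clf libraries and 96 with the replicate block. With RLE size factors 284 genes were called, with limma-voom 302, without the count filter 235 and with a filter of 1 CPM 313, each within 1.5 times the 291. DESeq2 called 935 genes, 332 of them changed at least 2-fold and 110 list members, and 97 interactions. Library totals alone gave 452 calls and limma on FPKM 557. The 6 clf libraries fitted alone gave 113 calls, 95 at least 2-fold, 32 list members and 52 named genes. The block for the pairing gave 109, 89, 29 and 47 and kept ERD5 as the 1 interaction called (2.39, edgeR adjusted p = 0.0083). It added a call for 1 gene of the uptake and coumarin list. Otherwise it changed no call among the genes described than those given beside them. A term for the 4 libraries with shifted clock genes gave 1741 calls, 388 at least 2-fold, 150 list members and 97 interactions. Without both replicate 3 clf libraries there were 148 calls, 33 list members, 47 named genes and 2 interactions. Leaving out 1 library gave 90 to 453 calls, 73 to 218 at least 2-fold, 30 to 66 list members, 46 to 92 named genes and 1 to 3 interactions, so the counts depended on single libraries. The fits with libraries left out hold fewer libraries, and for the other differences the cause was not tested. No called gene named by the rule changed direction under the alternatives run. The split of called list members was 19 higher and 44 lower in the 12-library edgeR fit and 17 and 12 with the block. The median over all genes moved to 0.15 with library totals and 0.13 on FPKM. Of the 96 called genes named by the rule, 54 lost the call in at least 1 fit that left out 1 library.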

Other observations

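Genes were grouped whose annotated product names the ribosome, rRNA, the nucleolus, NOP56, Rrp15 or bystin, a pattern chosen after the values were seen. Of 441 tested, 12 were higher in clf (2.72%) and none lower, against 0.752% higher and 0.768% lower over all tested genes. In wild type 11 of the 441 were higher and 26 lower, where 4.61% of all tested genes were higher and 4.52% lower. The median log2 change was 0.26 in clf and 0.03 in wild type. AT3G58660, of the ribosomal protein L1 family, had 48.3, 59.4 and 40.5 CPM in deficient clf, against 23.7, 24.8 and 20.98 CPM in sufficient clf (log2 1.09 ± 0.17 SE, edgeR adjusted p = 0.014; 0.062 with the replicate block). AT3G05060, a NOP56-like gene for a small nucleolar particle, had 65.5, 65.2 and 42.8 CPM in deficient clf, against 32.4, 29.9 and 25.9 CPM in sufficient clf (edgeR adjusted p = 0.025; 0.064 with the block). Of the 12, DESeq2 kept 12, the fit without both replicate 3 libraries 8 and the replicate block 2, neither of them a gene named here. None was kept without replicate 2 of deficient clf or replicate 2 or 3 of sufficient clf, and 1 without replicate 1 of either clf group.

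Called genes lay next to each other in 19 of 19012 adjacent pairs of tested genes (0.0999%), 12 pairs both higher, 7 both lower and none opposite, and 35 called genes (12%) were in such a pair. Over all tested genes 1.52% were called, and the number of pairs expected from that share was not computed. Some pairs are close copies, such as bHLH38 and bHLH39, and AT2G30766 overlaps CYP71A13 by 572 bases, so reads could have been shared. The defensin-like genes AT1G13607, AT1G13608 and AT1G13609 lie on one strand with gaps of 350 and 269 bases, and all 3 rose (AT1G13607 lost its call with the replicate block, edgeR adjusted p = 0.14, and without both replicate 3 libraries, 0.087). KEA5, a potassium antiporter gene, lies 497 bases from NEET and fell by 1.36 on the log2 scale, against 3.20 for NEET (KEA5 edgeR adjusted p = 0.034; 0.084 with the block and 0.14 without both replicate 3 libraries). EDA7 lies 316 bases from bHLH39 and rose by 1.62, against 8.71 for bHLH39 (EDA7 edgeR adjusted p = 0.017; 0.063 with the block and 0.075 without both replicate 3 libraries).

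The seed storage gene SESA2 had 0.7195, 1.48 and 13.997 CPM in deficient clf and 0 counts in the 3 sufficient libraries, and was not called (edgeR adjusted p = 0.086). DESeq2 called both seed maturation markers tested, SESA2 among them, as did the fit with a term for shifted clock genes, and edgeR called 1 of the 2 without both replicate 3 libraries or without replicate 3 of deficient clf alone. AT3G61820, for an aspartyl protease, differed little among replicates, with 11.3, 11.6 and 12.1 CPM in deficient clf, against 27.6, 29.5 and 32.5 CPM in sufficient clf (-1.36, edgeR adjusted p = 4.0e-05).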
